A study of Mus musculus with 5 samples.

Results

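Glycolysis in natural killer (NK) cells of mouse spleen was examined here through 31 genes for glycolytic enzymes, their regulators and the transporters of glucose and lactate. The genes were chosen by name along the pathway, from uptake of glucose to export of lactate, with earlier results of these data known. They correspond to 32 of the 56691 Ensembl gene IDs in the deposited count table, because Aldoa belongs to 2 IDs. All 32 IDs had enough counts to be tested among 30580 genes. The labels divide the libraries into 3 called Fli1 KO, in which CRISPR was aimed at Fli1, an ETS-family transcription factor, and 2 called NTC, the control arm of the same design. The sources used here do not give strain, age, culture conditions or guides, nor whether the numbered replicates come from separate animals, so that p-values measure the spread between these libraries only. Fli1 itself was counted at 389.6, 320.2 and 361 CPM (counts scaled to library size) in Fli1 KO 1 to 3 and at 322 and 279 CPM in NTC 1 and NTC 2 (log2 fold change 0.25, SE 0.14, edgeR adjusted p = 0.641). Since a small insertion or deletion can leave a transcript countable, these values do not check the labels.

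Glucose enters a lymphocyte through carriers of the SLC2A family and is trapped by hexokinase. Phosphofructokinase commits it to glycolysis, and aldolase and triosephosphate isomerase split it into triose phosphates. The payoff enzymes from glyceraldehyde-3-phosphate dehydrogenase to pyruvate kinase yield ATP and pyruvate, and lactate dehydrogenase with the SLC16A carriers disposes of pyruvate as lactate. Pyruvate dehydrogenase kinases hold pyruvate back from the mitochondria. Resting NK cells use little glucose, and cytokine-activated NK cells raise uptake and glycolysis to support growth and effector functions. Many of the genes are targets of the hypoxia-inducible factor HIF1 and of MYC.

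The libraries held 4718390 to 5643791 counts. CPM were scaled with TMM factors, and comparisons between genes use CPM per kb of exon. The count density on olfactory and vomeronasal receptor genes, which NK cells do not use, served as background. All 10 NK markers, Gzma and Gzmb among them, lay over 3 times background in the mean of the libraries. Of the markers of other cells, 1 of 7 for T cells (Trac), 0 of 5 for B cells, 1 of 8 for myeloid cells (Cd68) and 0 of 6 for erythroid cells did, with summed levels of 43.5 to 55.3, 27.8 to 36.1, 35.1 to 44.7 and 6.78 to 12.1 CPM. Hba-a1 and Hba-a2, the alpha globin genes, were at 0 in 2 and 3 libraries. The predicted genes Gm10800, Gm10801, Gm10717 and Gm10718 together took 12.1% of the counts in NTC 1, 16.3 to 19.3% in the Fli1 KO libraries and 22.3% in NTC 2.

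The summed counts of the glycolytic genes did not separate Fli1 KO from NTC, and the 2 NTC libraries lay far apart. Together these genes took 0.919, 0.702 and 0.848% of the counts in Fli1 KO 1 to 3, 0.762% in NTC 1 and 0.384% in NTC 2. NTC 1 therefore lay inside the range of the Fli1 KO libraries and NTC 2 far below it. edgeR called 0 of the 32 IDs higher against 0.458% of all tested genes, and 1 lower, Slc2a6, against 0.0883%. At an unadjusted p under 0.05 there were 9 higher, against 5.23%, and 1 lower, against 3.71%. DESeq2 called 0 of them higher, against 0.504%, and limma-voom 2, against 0.474%. A gene was called where its Benjamini-Hochberg adjusted p over all tested genes was under 0.05. The log2 fold change was positive for 26 of the 32 IDs, against 47.6% of all tested genes. Its median was 0.49, beside −0.02 for all tested genes, 0.11 for those over 3 times background and 0.15 for those averaging 100 CPM or more. In bulk RNA, fewer cells of a type and less RNA per cell cannot be told apart.

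**Figure D1:**
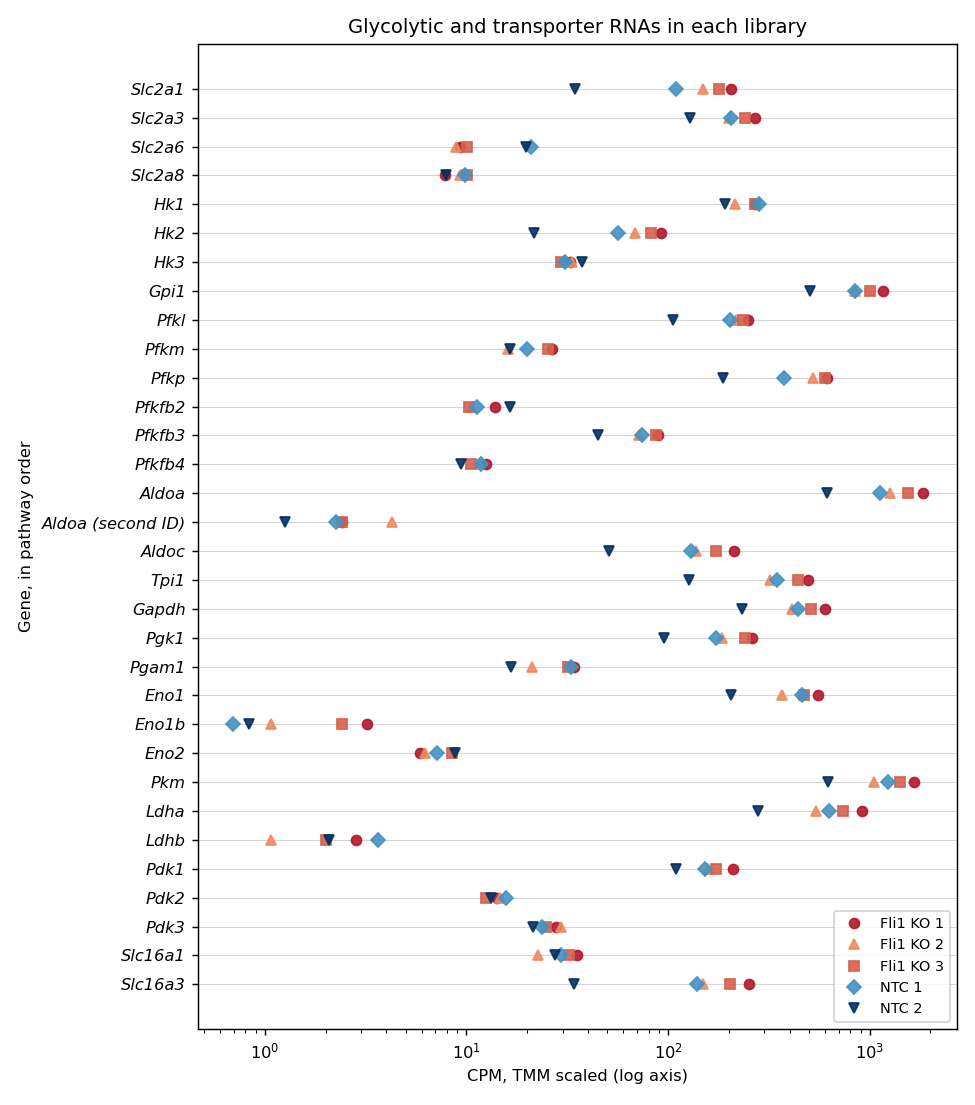
CPM of each glycolytic or transporter gene (rows, in pathway order) in the 5 libraries, on a log axis; each symbol is 1 library. NTC 2 (dark triangles pointing down) is the lowest of the 5 for 22 of the 32 IDs, NTC 1 (diamonds) lies within the Fli1 KO range for 15, and Slc2a6 alone has both NTC libraries above all 3 Fli1 KO libraries.

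Promoter sequence is shown for the 2 genes that differed most between NTC 2 and the other libraries, Slc2a1 and Slc16a3. It is shown too for Slc2a6, the called gene, and for Pfkp. The share of Pfkp among its isoforms separated the groups, and so did others, 15 of the 25 isoform shares in all. Shares of a step sum to the whole, so these are not independent, and no such count was made over all genes. The 15 include shares of IDs near background, such as Ldhb at 0.963 times it. Each run is the 250 bases before the RefSeq start (GRCm38.p6), 5′ to 3′ on the gene's strand. Capitals mark ACGTG or GCGTG on either strand, the 5-base core of the hypoxia response element. Slc2a1 is at chr4:119108495-119108744 (plus strand), Slc16a3 at chr11:120948817-120949066 (plus), Pfkp at chr13:6648772-6649021 (minus) and Slc2a6 at chr2:27027999-27028248 (minus).
Slc2a1: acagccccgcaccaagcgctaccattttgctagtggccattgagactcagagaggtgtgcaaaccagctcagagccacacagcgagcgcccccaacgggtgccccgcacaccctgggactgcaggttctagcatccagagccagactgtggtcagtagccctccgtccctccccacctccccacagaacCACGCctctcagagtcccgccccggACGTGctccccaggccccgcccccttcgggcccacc
Slc16a3: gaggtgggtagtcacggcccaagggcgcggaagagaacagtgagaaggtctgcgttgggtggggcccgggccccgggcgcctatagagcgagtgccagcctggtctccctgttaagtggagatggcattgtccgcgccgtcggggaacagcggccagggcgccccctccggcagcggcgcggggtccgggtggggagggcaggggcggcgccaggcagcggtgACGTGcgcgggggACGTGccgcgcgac
Pfkp: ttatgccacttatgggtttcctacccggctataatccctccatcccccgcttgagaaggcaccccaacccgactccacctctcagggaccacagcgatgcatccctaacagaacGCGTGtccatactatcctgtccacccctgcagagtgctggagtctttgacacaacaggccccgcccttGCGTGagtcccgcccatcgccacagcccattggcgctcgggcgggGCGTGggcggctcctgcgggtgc
Slc2a6: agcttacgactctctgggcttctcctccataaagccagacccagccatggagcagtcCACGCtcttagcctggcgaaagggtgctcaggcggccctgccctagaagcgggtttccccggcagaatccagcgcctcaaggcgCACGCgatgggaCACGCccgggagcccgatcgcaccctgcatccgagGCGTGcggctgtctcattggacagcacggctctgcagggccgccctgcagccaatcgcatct

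The printed runs hold 2 such cores for Slc2a1, 2 for Slc16a3, 3 for Pfkp and 4 for Slc2a6. They are therefore present both in the gene that was lower in Fli1 KO and in genes with a positive difference. Windows of 300 bases (250 before and 50 after a start) were found for 29 of the 31 symbols, all but Slc2a3 and Eno1b. At least 1 window held ACGTG or GCGTG for 26 of the 29, against 46.7% of the 27025 genes with a window. A gene with several windows is more likely to count here. By window, 80.0% of the windows of these genes held either core, against 43.8% of all. Their windows were also richer in G and C (a median of 61.0% against 52.7% of all windows). ACGTG alone occurred in 48.9% of the 45 windows of these genes and in 19.6% of all 32851, and CACGTG, the E-box that MYC recognises and that contains ACGTG, in 13.3% and 7.15%. CGGAAG, a core of ETS sites, was in 13.3% of their windows and 16.9% of all. A match is only a match of letters, and was not tested as a binding site.

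Glucose carriers differed in kind. Slc2a1 encodes GLUT1, the main carrier induced on activation (ENSMUSG00000028645, GRCm38 chromosome 4, 119108711 to 119137983). It was counted at 205, 149 and 179 CPM in Fli1 KO 1 to 3, at 109 CPM in NTC 1 and at 34.7 CPM in NTC 2. All 3 Fli1 KO libraries lay above both NTC libraries, and NTC 1 lay 3.14-fold above NTC 2. The log2 fold change was 1.30 (SE 0.57, edgeR adjusted p = 0.636). Limma-voom called it (adjusted p = 0.0272), and DESeq2 did not (adjusted p = 0.512). Nor did edgeR with other scaling or filters, or with a Fli1 KO library left out. With only the other NTC library as control, the log2 fold change was 0.71 without NTC 2 and 2.37 without NTC 1. In such fits the difference between the NTC libraries drops out of the spread. Slc2a3 encodes GLUT3, a high-affinity carrier of leukocytes and neurons. It stood at 271, 199 and 241 CPM in Fli1 KO, 206 CPM in NTC 1 and 128 CPM in NTC 2. NTC 1 was within the Fli1 KO range (log2 fold change 0.50, SE 0.18, edgeR adjusted p = 0.356).

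Slc2a6, the gene for GLUT6, a carrier held on intracellular membranes, was the one glycolytic gene with a difference that passed the test (ENSMUSG00000036067, GRCm38 chromosome 2, 27021363 to 27027998). It was counted at 9.28, 8.92 and 10.1 CPM in Fli1 KO and at 20.98 and 19.6 CPM in NTC 1 and NTC 2. The 2 NTC libraries were alike here (a ratio of 1.07, 95% exact counting interval 0.809 to 1.41), and the groups did not overlap, as for 13.7% of all tested genes in this direction. It fell 2.16-fold, from 20.3 ± 0.949 CPM (SD, n = 2) to 9.43 ± 0.592 CPM (SD, n = 3). The log2 fold change was −1.11, with SE 0.18 and an edgeR adjusted p of 0.00312. Without Fli1 KO 1, a fit that called 0.01% of genes lower, the call was lost (−1.09, adjusted p = 0.0679), and in the other settings in which it was tested it was kept. Its counts were 1.67 to 4.79 times background across the libraries, so its level, and with it the size of the fold, is uncertain. Slc2a8, the intracellular carrier GLUT8, stood at 7.87 to 10.1 CPM in Fli1 KO and at 9.88 and 7.94 CPM in NTC, 1.82 times background in the mean.

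Hexokinases trap glucose as glucose-6-phosphate. Hk2, the inducible isoform, was counted at 92.6, 68.7 and 81.8 CPM in Fli1 KO, 56.2 CPM in NTC 1 and 21.5 CPM in NTC 2. The groups did not overlap, but the NTC libraries were 2.61-fold apart (log2 fold change 1.04, SE 0.44, edgeR adjusted p = 0.604). Hk1, the constitutive isoform on the mitochondrial surface, stood at 271, 214 and 270 CPM in Fli1 KO, 283 CPM in NTC 1, the highest of the 5, and 192 CPM in NTC 2. Hk3, the isoform of myeloid cells, spanned 29.4 to 37.4 CPM, with NTC 2 the highest library. Gpi1, which isomerises glucose-6-phosphate, was at 1159, 849 and 1008 CPM in Fli1 KO, 846 CPM in NTC 1 and 506 CPM in NTC 2 (0.57, SE 0.19, adjusted p = 0.313). NTC 1 was only just below the lowest Fli1 KO library.

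Phosphofructokinase is encoded by Pfkl, Pfkm and Pfkp, named for liver, muscle and platelet, whose subunits mix in tetramers. Pfkp (ENSMUSG00000021196, GRCm38 chromosome 13, 6579768 to 6648777) was counted at 617, 525 and 599 CPM in Fli1 KO, 377 CPM in NTC 1 and 187 CPM in NTC 2. Of the 32 IDs it had the second smallest p, after Slc2a6 (log2 fold change 1.04, SE 0.25, edgeR adjusted p = 0.174). Limma-voom called it (1.12, adjusted p = 0.0146), and without NTC 2 its difference from NTC 1 alone was 0.63 (edgeR adjusted p = 0.147). Its transcripts share a stretch of at least 200 bases with those of Pitrm1, and how such reads were counted is not known. Pfkl stood at 249.2, 216 and 236 CPM in Fli1 KO, 202 CPM in NTC 1 and 106 CPM in NTC 2 (0.60, adjusted p = 0.414). For Pfkm, the groups overlapped at 16.1 to 26.4 CPM and 19.9 and 16.5 CPM.

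The PFKFB enzymes make or remove fructose-2,6-bisphosphate, which activates phosphofructokinase. Pfkfb3, the isoform with the strongest kinase activity, stood at 88.8, 72.1 and 86.8 CPM in Fli1 KO, 74.0 CPM in NTC 1 and 45.1 CPM in NTC 2 (log2 fold change 0.46, SE 0.17, edgeR adjusted p = 0.388). NTC 1 was within the Fli1 KO range. Pfkfb2 and Pfkfb4 were near background, at 1.12 and 1.48 times it, with 10.3 to 16.5 CPM and 9.40 to 12.5 CPM over the 5 libraries.

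Among the enzymes from aldolase to pyruvate kinase that lay over 3 times background, Fli1 KO 1 was the highest library and NTC 2 the lowest. Aldoa, the aldolase of muscle and most other tissues (ENSMUSG00000030695, GRCm38 chromosome 7, 126795234 to 126800751), was counted at 1835, 1263 and 1550.0 CPM in Fli1 KO 1 to 3, 1125 CPM in NTC 1 and 612 CPM in NTC 2. Its log2 fold change was 0.83 (SE 0.24, edgeR adjusted p = 0.240). The second ID of that name lies next to it, with 6 to 24 counts a library. Aldoc, the brain isoform, was at 212, 138 and 174 CPM, 130 CPM and 51.0 CPM in the same order (0.94, SE 0.49, adjusted p = 0.688). For both aldolases, and for Pgk1, the phosphoglycerate kinase that makes the first ATP of the pathway, all 3 Fli1 KO libraries lay above both NTC libraries. Pgk1 stood at 261, 186 and 240 CPM, 172 CPM and 95.3 CPM (0.77, SE 0.24, adjusted p = 0.319).

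For Tpi1, Gapdh, Eno1, Pkm and Pgam1, NTC 1 lay within the Fli1 KO range and NTC 2 below it. Tpi1, which interconverts the triose phosphates, was at 491, 320 and 439 CPM in Fli1 KO, 347 CPM in NTC 1 and 127 CPM in NTC 2 (log2 fold change 0.81, SE 0.53, edgeR adjusted p = 0.759). Gapdh, which oxidises glyceraldehyde-3-phosphate, was at 602, 412 and 513 CPM, 443 CPM and 232 CPM (0.59, adjusted p = 0.583). Eno1, the main enolase, had a Fli1 KO mean level with NTC 1 (462 ± 93.0 CPM, n = 3, against 462 CPM) and stood at 206 CPM in NTC 2. Pkm, pyruvate kinase of non-liver tissues, was at 1662, 1051 and 1416 CPM, 1226 CPM and 620.2 CPM (0.58, SE 0.31, adjusted p = 0.652). Pgam1, the mutase, was counted at 34.1, 21.2 and 31.8 CPM, 32.9 CPM and 16.7 CPM. Its mean over the libraries was 13.8 CPM per kb of exon, below the 76.4 CPM per kb of Eno1. Gapdh has 75 annotated pseudogenes that match it at 95% identity or more over at least 200 bases. They held counts equal to 11.9% of its own, and how reads with several positions were treated is not known, which leaves its level uncertain. For the other genes from aldolase to pyruvate kinase except Eno1b, such pseudogenes held at most 0.744% of the gene's own counts. If reads with several positions were dropped, gene and copy would both lose them. Low counts on the copies therefore do not settle the levels of these genes, Pgam1 included, whose pseudogene held 0 counts. Eno1b, a near copy of Eno1, was at 0.551 times background, and its 10 or more counts came from 2 Fli1 KO libraries only. Eno2, the neuronal enolase, was near background, with 29 to 42 counts a library.

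Ldha, the subunit that turns pyruvate into lactate (ENSMUSG00000063229, GRCm38 chromosome 7, 46841475 to 46855627), was counted at 917, 543 and 739 CPM in Fli1 KO, 630 CPM in NTC 1 and 278 CPM in NTC 2. NTC 1 was within the Fli1 KO range, and the NTC libraries were 2.27-fold apart (log2 fold change 0.69, SE 0.45, edgeR adjusted p = 0.752). Ldhb, the subunit of oxidative tissues, was at background (0.963 times it) with 6 to 21 counts a library. Pdk1, the hypoxia-induced kinase that shuts off pyruvate dehydrogenase, stood at 210, 158 and 173 CPM in Fli1 KO, 153 CPM in NTC 1 and 110 CPM in NTC 2 (0.46, SE 0.16, adjusted p = 0.314). Pdk3, another isoform, did not overlap between groups either, at 24.8 to 29.4 CPM against 23.6 and 21.3 CPM (0.28, SE 0.16, adjusted p = 0.640). Pdk2 overlapped, at 12.5 to 14.6 CPM in Fli1 KO and 15.8 and 13.2 CPM in NTC, and lay at 2.88 times background.

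Lactate leaves through the monocarboxylate carriers. Slc16a3, which encodes MCT4, the exporter of strongly glycolytic cells (ENSMUSG00000025161, GRCm38 chromosome 11, 120948480 to 120960868), was counted at 253, 148 and 203 CPM in Fli1 KO, 140 CPM in NTC 1 and 34.1 CPM in NTC 2. With a ratio of 4.10 (95% exact counting interval 3.46 to 4.88) the 2 NTC libraries differed more for this gene than for any other of the 32 IDs. The log2 fold change was 1.20 (SE 0.74, edgeR adjusted p = 0.754), and 0.54 without NTC 2 (adjusted p = 0.416). Slc16a1, which encodes MCT1 and carries lactate in either direction, showed no such spread, at 22.7 to 35.5 CPM in Fli1 KO and 29.3 and 27.4 CPM in NTC (0.08, SE 0.18, adjusted p = 0.941).

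The difference between the NTC libraries was set against the rest of the transcriptome. NTC 1 lay within the Fli1 KO range for 15 of the 32 IDs, against 47.7% of all tested genes, and above it for 4, against 26.8%. NTC 2 was the lowest of the 5 libraries for 22, against 22.4%. This share grows with the level of expression: among genes over 3 times background it was 20 of 23 against 48.3%, and among genes averaging 100 CPM or more 16 of 16 against 62.1%. NTC 1 lay at least 2-fold above NTC 2 for 8 IDs (Slc2a1, Hk2, Pfkp, Aldoc, Tpi1, Eno1, Ldha and Slc16a3), against 3.0% of all tested genes. All but Hk2 averaged 100 CPM or more, which makes 7 of 16 IDs at that level against 1.79% of genes. NTC 2 was 2-fold above NTC 1 for 0 of them, against 3.88%. For the 16 IDs averaging 100 CPM or more the median ratio of NTC 1 to NTC 2 was 1.95, beside 1.13 for all genes at that level. With 1 library on each side this is a comparison of libraries, and it has no test.

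Other values moved with NTC 2. The summed level of the 6 cycling markers, Mki67 and Top2a among them, was 999.8 CPM in NTC 2, 2025 CPM in NTC 1 and 1066 to 1675 CPM in Fli1 KO, with all 6 over 3 times background and 5 of 6 lowest in NTC 2. That of the 10 NK markers, led by Gzma and Gzmb, was 6440.0 CPM in NTC 2, 9580.0 CPM in NTC 1 and 8987 to 13300.0 CPM in Fli1 KO. The NK markers did not all follow their sum: 6 of 10, Gzma, Gzmb, Prf1, Il2rb, Eomes and Klra8, were lowest in NTC 2, and Tbx21 and Klrk1 were highest there. The background density was 1.78 CPM per kb, without TMM factors, in NTC 2, against 1.44 in NTC 1 and 1.36 to 1.65 in Fli1 KO. Their part in the glycolytic difference was not tested.

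The Fli1 KO libraries were ordered too. Fli1 KO 1 was the highest of the 3 for 25 of the 32 IDs and Fli1 KO 2 the lowest for 24, against 35.2% and 33.9% of all tested genes, and against 61.2% and 74.3% of genes averaging 100 CPM or more, where both held for 16 of 16. The ratios between them did not reach 2: among the 23 IDs over 3 times background 0 were 2-fold apart between Fli1 KO 1 and 2, 1 and 3 or 2 and 3, against 1.01%, 0.611% and 0.663% of genes at that level. For Ldha the ratio of the highest to the lowest Fli1 KO library was 1.69, and for Pfkp 1.18.

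Set against each NTC library in turn, the Fli1 KO mean gave different pictures. The median log2 ratio over the 32 IDs was 0.20 against NTC 1 and 0.94 against NTC 2, beside −0.0 and −0.03 for all tested genes. These 2 comparisons share the Fli1 KO libraries. Slc2a1 stood 1.63-fold above NTC 1 and 5.12-fold above NTC 2, Pfkp 1.54-fold and 3.10-fold, Hk2 1.44-fold and 3.77-fold, and Slc16a3 1.44-fold and 5.92-fold. All 3 Fli1 KO libraries lay above both NTC libraries for 13 IDs, against 11.9% of all tested genes, and for 11 of the 23 over 3 times background, against 26.1%. Eno1b, which passed the count filter through 2 Fli1 KO libraries only, is among the 13 and not among the 11. Left with NTC 2 as the only control, edgeR called 18 IDs higher, against 2.14% of the genes tested in that fit, and left with NTC 1 it called 1, Slc2a1, against 0.336%. In these fits the lone NTC library is assumed to vary as the Fli1 KO libraries do, and the difference between NTC libraries drops out of the spread.

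**Figure D2:**
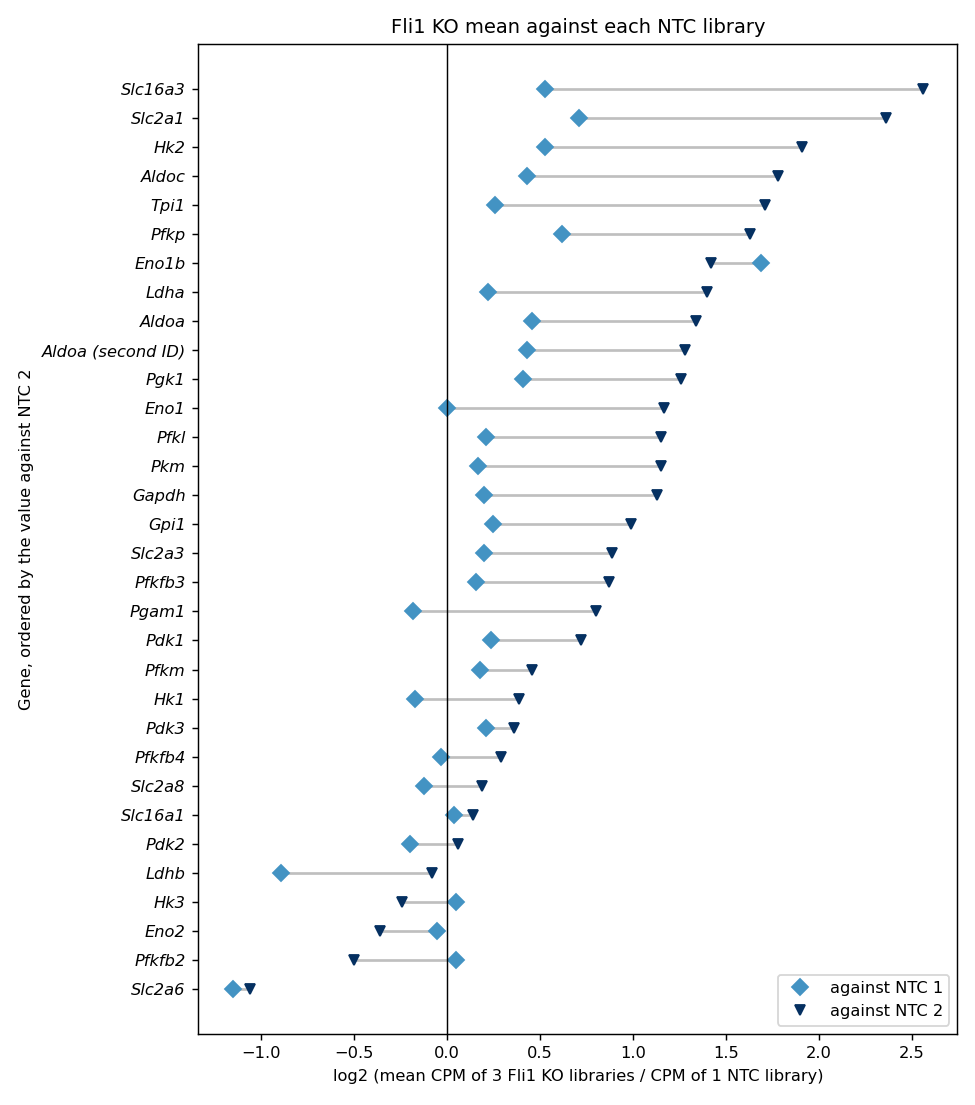
Log2 ratio of the mean CPM of the 3 Fli1 KO libraries to the CPM of NTC 1 (diamonds) or NTC 2 (triangles) for each ID, ordered by the latter; a grey line joins the 2 values of a gene. The values against NTC 1 have a median of 0.20 and those against NTC 2 a median of 0.94, and Slc2a6 lies near −1.1 in both.

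Shares of the isoforms within a step do not depend on how libraries are scaled, and here the Fli1 KO libraries were close to each other. By CPM per kb of exon, Slc2a1 made up 57.8, 56.1 and 56.4% of the 4 glucose carriers in Fli1 KO 1 to 3, 45.0% in NTC 1 and 27.4% in NTC 2. Slc2a3 made up 36.4 to 37.0% in Fli1 KO, 41.1% in NTC 1 and 48.9% in NTC 2. The leading carrier thus was Slc2a1 in 4 libraries and Slc2a3 in NTC 2, whereas per kb of coding sequence Slc2a3 led in all 5. Pfkp held 50.4, 51.3 and 51.0% of phosphofructokinase in Fli1 KO and 43.7 and 40.2% in NTC. Both NTC values lay below the narrow Fli1 KO range. Pfkl led in both NTC libraries per kb of exon, and Pfkp in all 5 per kb of coding sequence.

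Hk2 held 25.2 to 27.7% of hexokinase in Fli1 KO, 18.5% in NTC 1 and 9.95% in NTC 2, with Hk1 the leading isoform in every library. Slc16a3 held 84.0 to 85.5% of the lactate carriers in Fli1 KO, 79.9% in NTC 1 and 50.9% in NTC 2. Aldoa (90.6 to 93.1%), Eno1 (94.3 to 97.9%) and Ldha (98.4 to 99.6%) were dominant in every library, Pfkfb3 held 58.7 to 76.3% of its step and Pdk1 53.0 to 63.8%. Of 25 shares in 9 steps, 15 reached an exact two-sided permutation p of 0.2 (adjusted 0.333). This is the smallest value that the test as run, which doubles the smaller tail, allows for 3 against 2 libraries. These shares are therefore a description. Within a step they sum to the whole and are not independent, and no such count was made over all genes. How evenly the probe capture worked between genes and between libraries was not tested. Capture that differs between genes could change the shares and which isoform leads.

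**Figure D3:**
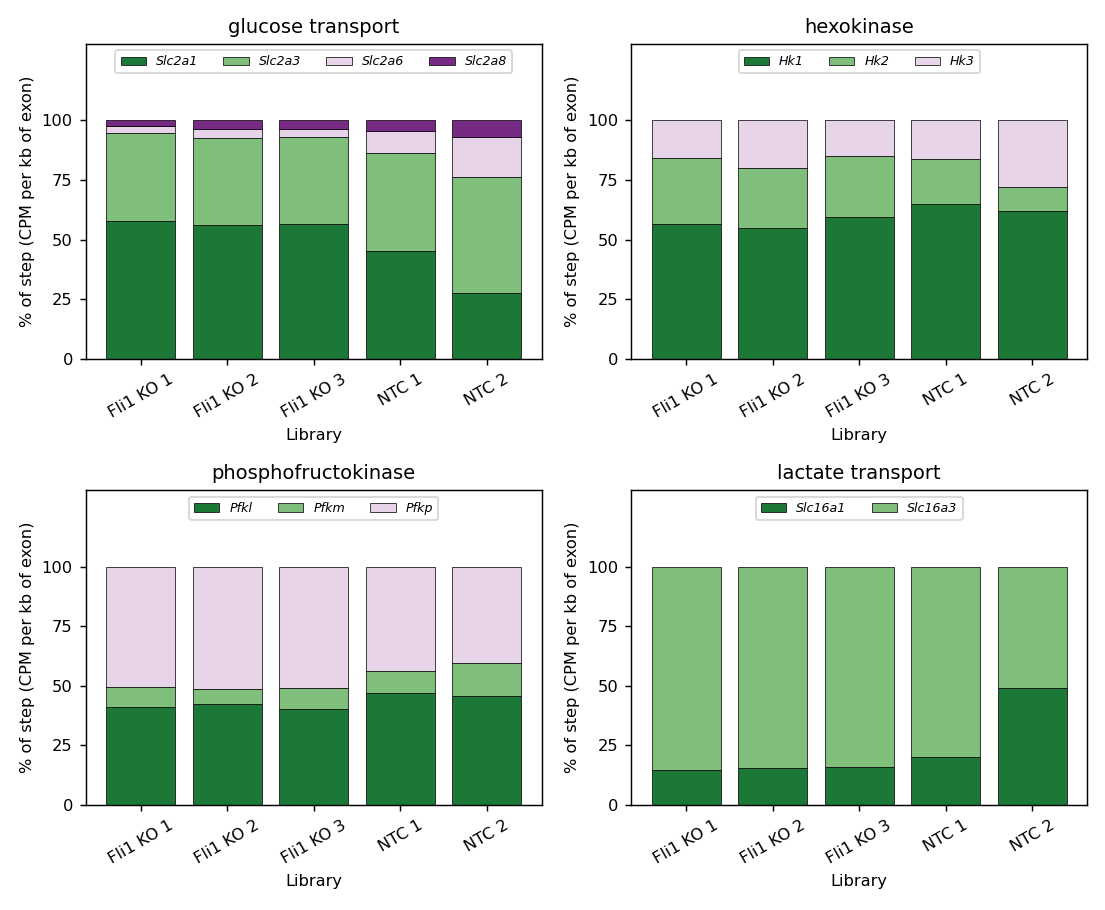
Share of each isoform (percent of the step's summed CPM per kb of exon) in the 5 libraries for glucose carriers, hexokinases, phosphofructokinases and lactate carriers; each bar is 1 library. The Slc2a1 share is 56.1 to 57.8% in Fli1 KO, 45.0% in NTC 1 and 27.4% in NTC 2, and the Pfkp share 50.4 to 51.3%, 43.7% and 40.2%.

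Genes of neighbouring pathways were looked at next. In 7 lists of neighbouring steps, edgeR called 1 gene higher and 0 lower among 89 tested, against the 0.458% and 0.0883% given above. Gfpt1, which sends fructose-6-phosphate into hexosamine synthesis, rose 1.57-fold, from 56.0 ± 1.21 CPM (SD, n = 2) to 88.2 ± 10.98 CPM (SD, n = 3). The log2 fold change was 0.65, with SE 0.14 and an edgeR adjusted p of 0.0321. Its NTC libraries were alike, at 56.9 and 55.2 CPM, below 99.7, 77.8 and 87.2 CPM in Fli1 KO. It was not called without Fli1 KO 1 (0.57, adjusted p = 0.330), Fli1 KO 3 (0.68, 0.284) or NTC 2 (0.64, 0.125), or with library size alone (0.52, 0.0904). The median of the 7 tested hexosamine and mannose genes was 0.20. In the lists that follow, counts at an unadjusted p below 0.05 are to be read against 5.23% of all tested genes higher and 3.71% lower, and counts of positive genes against 47.6%.

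The pentose phosphate pathway, which draws glucose-6-phosphate into NADPH and ribose, had a median of 0.05 over 8 genes, with 4 positive and 0 called (0 also at an unadjusted p below 0.05, by DESeq2 and by limma-voom). Rpia had the smallest p there (44.2 ± 4.78 CPM for Fli1 KO, 38.1 ± 0.357 CPM for NTC, edgeR adjusted p = 0.729). Pyruvate entry and pyruvate dehydrogenase had a median of 0.03 over 11 genes, 0 of them called (2 higher unadjusted, 0 by DESeq2, 0 by limma-voom). First by p was Pdp1, the phosphatase that opposes the PDK enzymes, at 51.8 ± 9.32 CPM for Fli1 KO and 29.7 ± 8.96 CPM for NTC (0.79 on the log2 scale, edgeR adjusted p = 0.0633). Pdp1 was called higher with upper-quartile factors, with no filter, without Fli1 KO 2 and without NTC 1. Of 20 genes of glycogen and gluconeogenesis 17 were positive, with a median of 0.20 and 0 called (5 higher unadjusted, 0 by DESeq2, 0 by limma-voom). Gbe1, the glycogen branching enzyme, was first (62.2 ± 5.41 CPM for Fli1 KO, 44.9 ± 7.91 CPM for NTC, edgeR adjusted p = 0.251). Without NTC 1, 4 genes of this list were called higher (Gbe1, Gys1, Pgm1 and Pygl), and 1 of the pentose phosphate list (Tkt), in a fit that called 2.14% of all genes higher.

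In the glycerol and serine branch the median was 0.05 over 8 genes and in the malate-aspartate shuttle 0.09 over 7, again with 0 called in each (1 higher unadjusted in each, 0 by DESeq2, 0 by limma-voom). Gpd2, the mitochondrial glycerol-3-phosphate dehydrogenase, and Slc25a11, the oxoglutarate carrier, were first by p, both with a log2 fold change of 0.42 (edgeR adjusted p = 0.397 and 0.319). Without NTC 1, Gpd2 and Psat1 were called higher. Other isoforms and partners of the glycolytic enzymes had a median of −0.13 over 28 genes, of which 4 lay over 3 times background, with 0 called (2 higher and 5 lower unadjusted, 0 by DESeq2, 0 by limma-voom). Emb, a partner of the MCT carriers, had the smallest p. It stood at 174, 183 and 167 CPM in Fli1 KO, 211 CPM in NTC 1 and 362 CPM in NTC 2, its highest value (log2 fold change −0.71, SE 0.17, edgeR adjusted p = 0.0785). Bsg, of the same list, had its lowest value in NTC 2, as did 62.1% of tested genes averaging 100 CPM or more. It stood at 205, 151 and 203 CPM in Fli1 KO, 173 CPM in NTC 1 and 107 CPM in NTC 2 (0.41, SE 0.19, edgeR adjusted p = 0.546). Emb was called lower with library size alone, with no filter and without NTC 1, Slc16a6 was called higher without Fli1 KO 2 and without NTC 1, and Bsg higher without NTC 1.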

How the data were processed

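Raw counts for each Ensembl gene ID in 5 libraries were deposited as 1 table. Per the labels' protocols they were made from column-purified RNA, 10 ng each, with a probe-enrichment kit. Per the submitters' processing notes, FastQC 0.12.0, Trimmomatic 0.39, STAR 2.7.11 and mm10 were used. For the counter, its strand setting and the annotation release: not given in the sources used here.

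Symbols came from the reference's gene name table (91.9% of IDs matched), coordinates and merged exon lengths from GENCODE M21 (GRCm38, also called mm10). Genes passing edgeR's filterByExpr (minimum count 10) were scaled with TMM and tested in edgeR 4.0.16 (R 4.3.3) by the robust quasi-likelihood F-test, with Benjamini-Hochberg adjustment over all of them, after the script was tested on simulated data. SE came from the coefficient and its F statistic. Means ± SD are of CPM. Background was the density on 1957 autosomal receptor genes. Intervals cover counting error only. DESeq2 1.42.0 and limma-voom (limma 3.58.1) were alternatives, also for the neighbouring lists. Pseudogene copies were found with megablast. All member genes are named, with the called genes of each neighbouring list or, failing that, the one with the smallest p. Some genes of these lists that were called only in other settings are named too. Members and lists were chosen with earlier results of these data known.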

Additional observations from a re-analysis of the deposited data

How the results depend on the processing

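Slc2a6 was lower in each of the 13 other settings in which it was tested and lost its call in 1, without Fli1 KO 1. It was not among the genes over 3 times background, a setting added after seeing the data, so that the count of glycolytic IDs called lower was 0 there. The median log2 fold change of the glycolytic IDs ran from 0.21 to 0.96 when 1 library was left out, and the IDs called higher from 0 to 18 and lower from 0 to 1. Over all genes such fits called 46 to 703 higher and 3 to 174 lower, against 140 and 27. Library size alone gave 92 higher and 71 lower, no filter 239 and 56, and the genes over 3 times background 60 lower. Limma-voom called 2 glycolytic IDs higher. With a fold of 1.5 in place of 2, 19 of 32 IDs lay higher in NTC 1 than in NTC 2, against 9.59% of all tested genes. The leading isoform was the same per kb of exon and of coding sequence in every library for 7 of 9 steps.

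With the replicate number as a block, 728 genes (2.38%) and 17 glycolytic IDs were called higher and 193 genes lower. In the neighbouring lists the block called 3 genes of glycogen, 2 of hexosamine, 1 each of pyruvate entry, the glycerol branch and the malate shuttle, and 2 other isoforms or partners higher, and 2 of the latter lower. The labels do not say that the numbers pair libraries, and only 2 numbers are shared. Deviations from the group means over 7691 genes correlated at 0.30 for number 1 and 0.44 for number 2, and Fli1 KO 3, which has no partner, at 0.21 with NTC 1. The deviations of the 2 NTC libraries mirror each other, and those of the 3 Fli1 KO libraries cancel out. These correlations are therefore tied to one another and do not count as separate agreements.

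Signs turned for genes near 0. With library size alone, which moved the median of all genes to −0.14, Slc2a8 (−0.11), Hk1 (−0.05), Pfkfb4 (−0.02) and Slc16a1 (−0.05) turned. With 1 library left out, log2 fold changes ran from −0.12 to 0.21 for Slc2a8, −0.16 to 0.41 for Hk1, −0.21 to 0.06 for Hk3, −0.49 to 0.05 for Pfkfb2, −0.03 to 0.31 for Pfkfb4, −0.18 to 0.81 for Pgam1, −0.19 to 0.08 for Pdk2 and −0.04 to 0.28 for Slc16a1. Slc2a8 was at −0.0034 with the filter at 5 CPM in 2 libraries and at −0.06 with the block. Among genes over 3 times background Hk1 (−0.03) and Slc16a1 (−0.04) turned. The causes were not tested. Counts limit the 9 IDs not over 3 times background most.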
